A study of Mus musculus with 8 samples.

Results

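The CpGs described here are the most deeply covered ones of the autosomes in whole-genome bisulfite sequencing of mouse B and T lymphocytes. They were chosen by depth alone: a CpG was taken when each of the 4 deposited files held more than 100 reads on it. This selected 2593 CpGs of the 18216084 autosomal CpGs that had 5 or more reads in all 4 files (0.0142%). Deep CpGs less than 5 kb apart were joined, which gave 136 clusters on all 19 autosomes. The cells were CD43- B cells and naive CD4+ CD62L+ T cells sorted from spleens of female and male C57BL/6J mice of 6 to 8 weeks, with no treatment and no engineered allele. The 8 samples form 4 groups of 2, by sex and cell type, and values for the 4 files are given in the order female B, then female T, then male B, then male T. Each group has a single deposited file, the cells were pooled over animals, and the labels of both samples point to it although its name carries the number of only 1 of them. Whether a file holds 1 sample or merges both is not stated. Either way there is no spread between replicates, and a difference was seen once per sex or once per cell type. Depth is the readout that selected the CpGs, so it is given as a description with no test. Methylation level was not used for the selection.

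A read is placed where it matches the reference best. When the genome holds many more copies of a sequence than the assembly does, reads of all copies are placed on the few copies that were assembled, and the depth there rises while the level becomes an average over copies. Mouse chromosomes carry long arrays of major satellite at the pericentromere, normally heavily methylated heterochromatin, and only short pieces of them are assembled. The genes of the 45S ribosomal RNA precursor, which is cut into the 18S, 5.8S and 28S RNAs, also lie in arrays that the assembly mostly lacks, and only a part of the copies is active in a given cell. Segmental duplications and interspersed elements are further sequences whose copies can share reads.

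The labelled cell types were checked first. The promoters of the B cell genes Cd79a and Ms4a1 were 10.5% to 17.02% methylated in the B cell files and 79.3% to 93.6% in the T cell files. The promoters of the T cell genes Cd3d, Cd3e and Cd4 were 70.2% to 95.5% methylated in the B cell files and 1.87% to 20% in the T cell files. The mean depth of an autosomal CpG was 14.6, 17.7, 16.1 and 17.3 reads in the 4 files. Depth over this mean is called relative depth. The deep CpGs had a median depth of 362, 449, 399 and 430 reads, a median relative depth of 24.7, 25.4, 24.7 and 24.9. They took 3.40%, 3.07%, 3.16% and 3.08% of all autosomal CpG reads. Intervals below cover counting error only, and CpGs a few bases apart share reads, so an interval over several CpGs is too narrow.

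Sequences that carry the main groups are shown first, all from GRCm38 (mm10) in lower case. In the first 6, capitals mark CpGs. The first is 1 unit of the array on chromosome 9 (chr9:3000341-3000574, plus strand), a sequence that repeats every 234 bases. It was picked to start at the deep CpG followed by the most deep CpGs within 1 period, so it is not a typical unit. The second holds the deepest CpG of the autosomes in its centre (chr2:98667099-98667199, plus strand). The third begins at the first deep CpG of the ribosomal precursor copy (chr17:39843014-39843163, plus strand) and is dense in CpGs. It is labelled 45S start, although the place where the precursor starts was not determined. The fourth is 3 units of an array on chromosome 4 with a period of 44 bases (chr4:118547210-118547341, plus strand). The fifth begins a short cluster with a low level on chromosome 16 (chr16:11143944-11144093, plus strand). The sixth is from Sfi1 on chromosome 11 (chr11:3194055-3194155, plus strand), deep although the reference holds it once. It is labelled single-copy for the reference only, and its number of copies in the genome was not tested.
array on 9: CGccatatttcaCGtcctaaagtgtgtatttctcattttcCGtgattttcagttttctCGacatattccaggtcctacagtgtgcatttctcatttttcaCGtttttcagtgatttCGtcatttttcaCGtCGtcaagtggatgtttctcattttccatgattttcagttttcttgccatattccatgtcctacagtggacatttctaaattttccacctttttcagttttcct
deepest CpG: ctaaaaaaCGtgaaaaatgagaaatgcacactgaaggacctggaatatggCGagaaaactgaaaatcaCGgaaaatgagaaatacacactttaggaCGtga
45S start on 17: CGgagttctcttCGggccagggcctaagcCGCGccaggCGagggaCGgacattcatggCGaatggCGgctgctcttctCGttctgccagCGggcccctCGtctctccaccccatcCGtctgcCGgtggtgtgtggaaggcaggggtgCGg
array on 4: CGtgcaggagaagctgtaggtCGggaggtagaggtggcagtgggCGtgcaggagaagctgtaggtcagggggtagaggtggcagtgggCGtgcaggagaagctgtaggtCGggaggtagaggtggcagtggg
low-level cluster on 16: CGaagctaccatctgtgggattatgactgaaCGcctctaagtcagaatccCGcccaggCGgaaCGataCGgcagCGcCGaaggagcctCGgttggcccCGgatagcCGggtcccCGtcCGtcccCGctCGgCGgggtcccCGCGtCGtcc
single-copy stretch on 11: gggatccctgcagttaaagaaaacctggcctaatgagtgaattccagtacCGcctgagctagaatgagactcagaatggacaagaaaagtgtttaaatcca

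The next pair shows how alike an assembled fragment and the precursor copy are. Whether they share reads was not tested. The fragment lies on chromosome 6 (chr6:3201351-3201519, plus strand) and its match in the 18S copy on chromosome 17 (chr17:39847262-39847430, plus strand). Over 169 bases they differ at 3, marked in capitals, and counted from the first base shown these are C77T, T142G and T165C from the copy on 17 to the fragment.
fragment on 6: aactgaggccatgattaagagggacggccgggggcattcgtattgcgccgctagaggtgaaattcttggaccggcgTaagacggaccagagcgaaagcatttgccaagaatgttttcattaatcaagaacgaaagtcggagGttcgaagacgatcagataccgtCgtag
18S on 17: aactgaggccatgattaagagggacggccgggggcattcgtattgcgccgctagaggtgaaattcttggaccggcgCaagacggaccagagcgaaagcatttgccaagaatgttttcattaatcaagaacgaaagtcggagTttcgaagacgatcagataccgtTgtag

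The size of the clusters was uneven. Of the 136 clusters, 37 held a single deep CpG, 18 held 2, and 37 held 10 or more, and these last held 2315 of the 2593 deep CpGs. The 2 largest held 1013 (39.1%). Mean relative depth over the 4 files ranged from 6.67 to 5229 between clusters, with a median of 9.51. It was above 100 in 7 clusters, between 20 and 100 in 15, and lower in the other 114. Genes overlapped 84 clusters. Of the deep CpGs, 1017 (39.2%) lay in exons, 92 (3.55%) in UTRs, 1075 (41.5%) in introns and 409 (15.8%) between genes. In every 500th of the other CpGs (36427 CpGs), 8.06% lay in exons, 4.51% in UTRs, 44.8% in introns and 42.6% between genes. Of the 1017 exonic deep CpGs, 567 lay in clusters of the ribosomal class described below, 246 in clusters that match the satellite array on 9, and 204 elsewhere.

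Each cluster was classed from its sequence alone, by annotation, by matches to itself at a shift, and by the number of other places of the reference to which its stretches of about 200 bases aligned at 90% identity, as the median over stretches. No stretch of any cluster aligned to the mitochondrial sequence, so 0 clusters were classed as mitochondrial copies. The other classes were ribosomal (3 clusters, 596 deep CpGs), tandem array (14 clusters, 610), dispersed multicopy with 10 or more other places (56 clusters, 446), few copies with 1 to 9 other places (49 clusters, 657) and no other copy, a median of 0 (14 clusters, 284), in which single stretches can still have copies. Letter for letter, the 51 bases around a deep CpG occurred more than once in the reference for 1196 deep CpGs (46.1%) and for 6.37% of the other CpGs sampled. With the 50 bases to either side of its C the counts were 768 (29.6%) and 2.40%. Over that longer stretch 1823 deep CpGs (70.3%) had sequence that the reference holds once. The reference marks 33.8% of deep CpGs and 19.9% of the others as repeats.

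**Figure D1:**
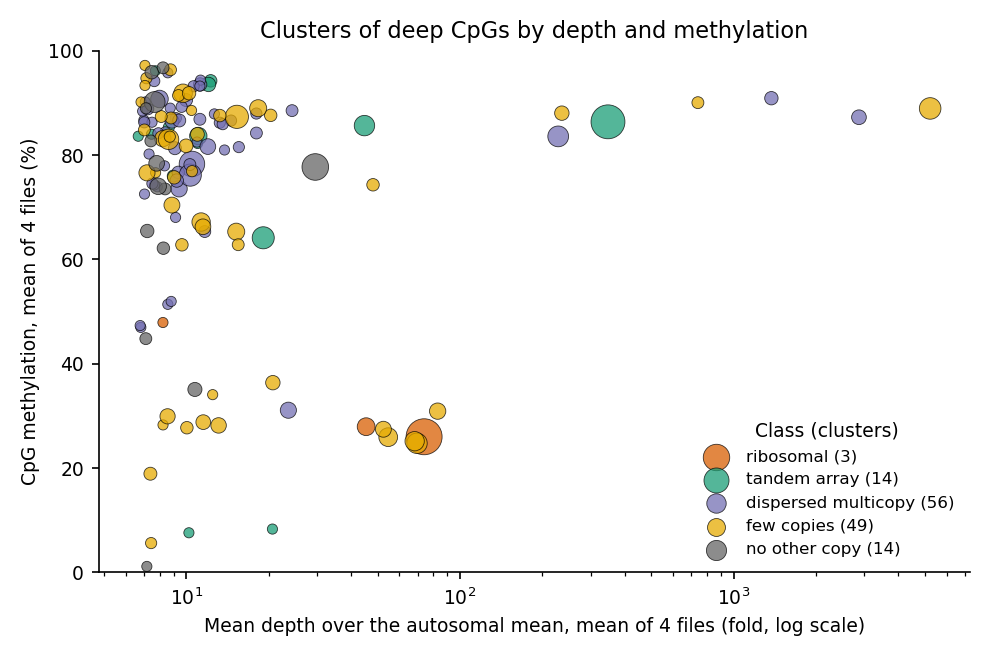
Each point is 1 of 136 clusters, with the mean depth over the autosomal mean on a log axis, the mean methylation level of the 4 files on the other axis, the class as colour and a larger point for more deep CpGs. The clusters above 100-fold all lie between 83.6% and 90.9%, and a separate set lies near 25% to 36%, most of it between 8.5-fold and 83-fold.

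Pooled over reads, the deep CpGs were 83.0%, 81.8%, 82.2% and 81.9% methylated, and all other autosomal CpGs 80.5%, 79.4%, 79.5% and 79.5%. The deep CpGs were higher by 2.50, 2.45, 2.69 and 2.45 points, the same direction in 4 of 4 files (exact paired sign-flip permutation test over files, two-sided; it gave the smallest p that 4 files allow, which lies above 0.05). The direction depends on the weighting, because 1 cluster on chromosome 2 held 53.0% to 55.3% of the reads on deep CpGs. As a mean over CpGs the deep CpGs were at 64.6%, 63.9%, 63.7% and 62.7% and the others at 80.7%, 80.6%, 80.5% and 80.4%, a mean difference of -16.8 points in the opposite direction (the same test, again at its smallest p). The test thus gave the same p for opposite directions and cannot decide between them. All 4 files read the same CpGs, so their agreement is not replication. Levels under 50% were found at 36.4%, 36.4%, 36.3% and 36.3% of deep CpGs, against 13.3% to 13.4% of the others. The mean over CpGs also rests on a few clusters. The 25 clusters with a mean level under 50% held 837 deep CpGs, 569 of them in 1 ribosomal cluster on 17 described below.

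The deepest clusters matched one another and the array on chromosome 9. Aligned at 80% identity, 8 clusters with 587 deep CpGs formed 1 linked group, which took 89.25%, 86.5%, 87.8% and 87.5% of the reads on deep CpGs. Their pooled level was 87.7%, 88.3%, 88.0% and 88.2%, against 43.8%, 40.5%, 40.6% and 38.0% for the remaining deep CpGs. The level of the remainder is weighted by reads. The ribosomal class took 6.05%, 8.00%, 7.13% and 7.31% of the reads on deep CpGs, at 29.2%, 26.1%, 26.5% and 22.5%. In the other classes, satellite included, the median cluster level was 75.9% to 85.2%. The 4 pooled levels of the linked group differed by under 1 point, and female B had the lowest level in 7 of the 8 clusters and the highest relative depth in 7. Relative depth divides by the autosomal mean, which was lowest in female B. In reads, female B was the shallowest file on 2, in both clusters on 9 and on 14, but not on 6, 11, 12 and 13. The 8 clusters share sequence and files, so these counts are not replicates. The array on 9 (chr9:3000031-3038257) held 444 deep CpGs with a period of 234 bases, which is the known unit length of mouse major satellite. Depth there averaged 5381, 5902, 5589 and 5905 reads, a relative depth of 367, 334, 346 and 342, and the level was 85.9%, 86.7%, 86.3% and 86.6%. Its annotated transcripts (Gm10722, Gm11168, Gm10721 and others) are gene models on the satellite itself.

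The deepest cluster (chr2:98662264-98667326, over the models Gm10800 and Gm10801) held 63 deep CpGs. Its mean depth was 83173, 87750, 83933 and 87508 reads, 5680-fold, 4970-fold, 5202-fold and 5062-fold of the autosomal mean, at a level of 88.6%, 89.2%, 88.9% and 89.1%. Female B was the deepest file in relative terms and female T the shallowest, a gap of under 1.2-fold. The single deepest CpG of the autosomes lies here, with 395727, 404765, 400169 and 407199 reads and a level of 91.3% in all 4 files. Of the 26 stretches of about 200 bases into which this cluster was divided, 10 aligned to the array on 9. By the class rule it counts as few copies (a median of 4.5 other places).

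Of the other clusters in this linked group, a second one on 9 (chr9:35305242-35305583, an intron of Gm33838) had a relative depth of 3117, 2769, 2830 and 2772 at 86.7% to 87.6%. A cluster near the start of 12 (chr12:3109883-3110118, intergenic) had 1533, 1276, 1399 and 1288 at 90.6% to 91.1%. In an intron of Chl1, a cell adhesion gene (chr6:103649167-103649288), 3 deep CpGs had 835, 679, 768 and 680 at 89.9% to 90.3%, and this cluster aligned to the one on 2 but not to the array on 9. On 14 (chr14:19415740-19419616, Gm21738), 53 deep CpGs had 250, 218, 229 and 217 at 83.2% to 83.9%. Female B had the highest relative depth in each of these clusters. The last 2 were shallow: 13 (chr13:77438925-77438941, an intron of 2210408I21Rik) had 21.6, 17.3, 17.7 and 15.5, and 11 (chr11:3101286-3101986, intergenic) had 6.90 to 7.73. The cluster on 11 joined the group through 1 of its 5 stretches, at 83.03% identity to the array on 9. By the class rule it has no other copy, and it also counts in the Sfi1 region below. One cluster above 100-fold did not match this linked group, an intergenic stretch (chr15:75085812-75086940) with 9 deep CpGs, a relative depth of 228, 260, 228 and 227 and a level of 87.8% to 88.3%.

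**Figure D2:**
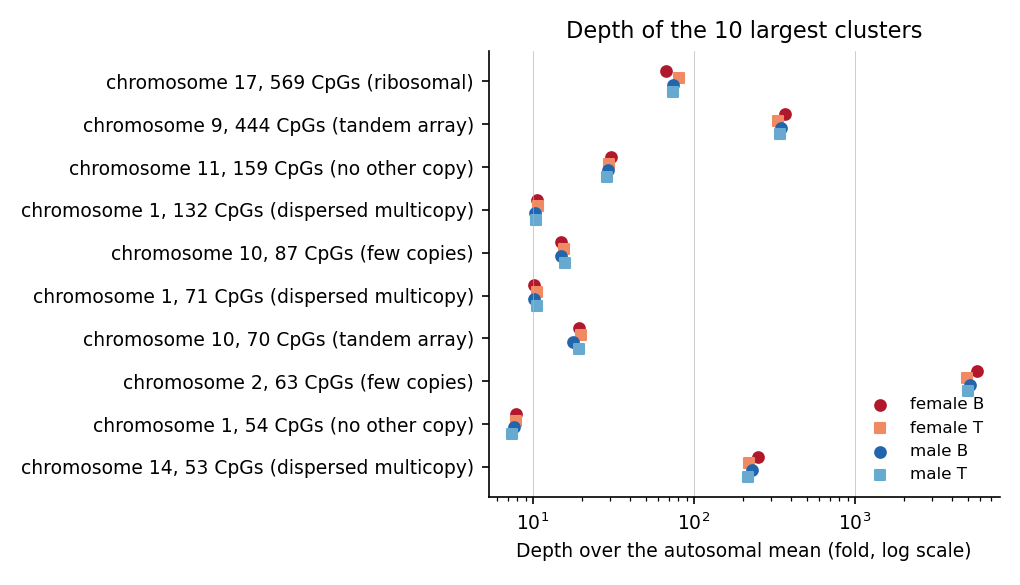
Relative depth (log axis) of the 10 clusters with the most deep CpGs in each of the 4 files. The 4 files lie close together in each cluster, while clusters differ from 7.4-fold to 5680-fold.

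The largest cluster was the ribosomal precursor copy on 17 (chr17:39843014-39848811), with 569 deep CpGs of the 593 CpGs of that stretch. It holds an 18S copy (Rn18s-rs5, chr17:39846354-39848202) and the overlapping transcript models Gm26917, CT010467.1, Gm42418 and AY036118, and at 90% identity most of its stretches had no other copy in the reference. Relative depth was 66.7, 80.9, 73.9 and 74.2. The level was low, 29.2% (95% Wilson interval 29.1% to 29.3%), 26.1%, 26.4% and 22.4%. Female B was the highest file and male T the lowest, while female T and male B lay between them and close to each other. The B cell file exceeded the T cell file by 3.13 points in females and 3.99 in males, and females exceeded males by 2.78 points for B cells and 3.64 for T cells.

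This order held at most CpGs of the stretch. B cells were above T cells in both sexes at 514 of 569 CpGs and below in both at 4. Female files were above male files in both cell types at 502 CpGs and below in both at 6. These CpGs share reads and copies, so the counts describe 4 files and are not replicates. Upstream of the 18S copy (354 deep CpGs) the level was 29.2%, 25.9%, 26.6% and 22.5%, within it (136) 29.6%, 27.0%, 26.7% and 22.7%, and downstream (79) 27.9%, 24.5%, 24.9% and 21.1%. Single CpGs ranged from 2.35% to 50.7% as a mean of the 4 files, with a median of 25.2% and an SD over CpGs of 6.35 points, and 567 of 569 lay between 10% and 50%. Depth rose and fell between 104 and 3302 reads along the stretch with the same shape in every file (Pearson r of 0.991 or more for each pair of files across the 569 CpGs, which share libraries and sequence).

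**Figure D3:**
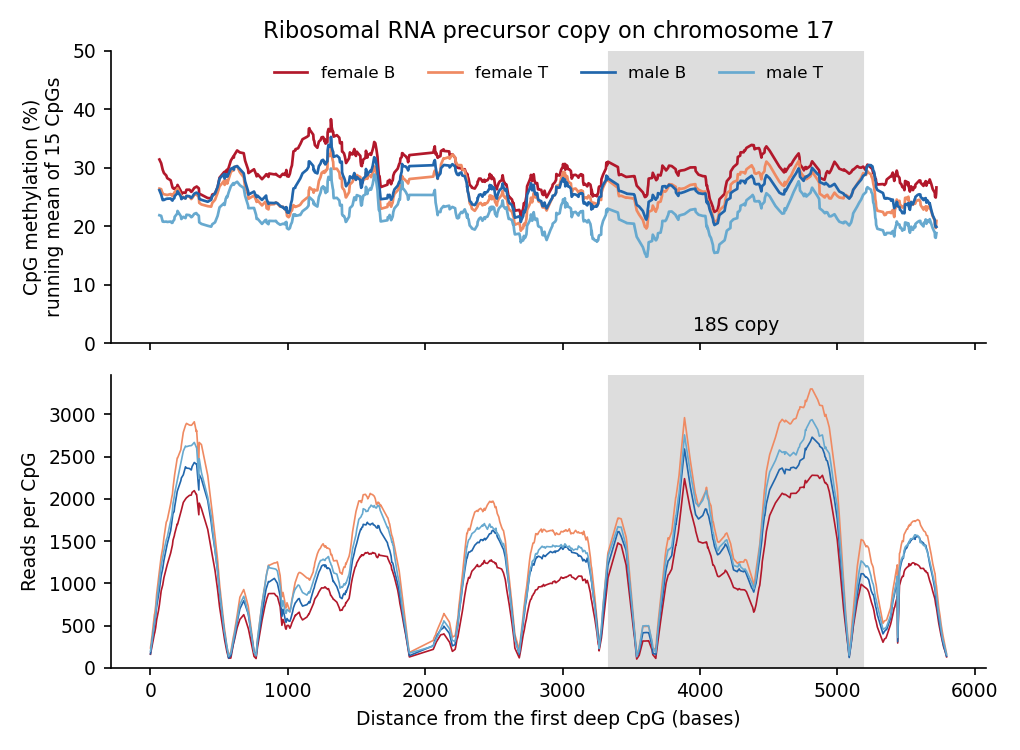
Methylation as a running mean of 15 CpGs (top, %) and reads per CpG (bottom) of the 4 files along the ribosomal precursor copy on 17, by distance in bases from its first deep CpG, with the 18S copy shaded. Female B runs highest and male T lowest over nearly all of the stretch, and the depth peaks fall at the same places in all 4 files.

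The other 2 ribosomal clusters lay on 6. The intergenic 18S fragment (chr6:3201283-3201588, 26 deep CpGs) had a relative depth of 45.5, 46.7, 44.2 and 45.1 and a level of 29.6%, 27.9%, 29.1% and 25.2%. Over the 169 bases printed above, its 15 CpGs were at 28.4%, 26.4%, 28.1% and 23.7%, and the 14 deep CpGs of the copy on 17 at 32.9%, 28.9%, 27.4% and 23.5%. The 2 sets are not the same, since T165C makes a CpG on 6 that the copy on 17 lacks. The part of that CpG in the levels was not tested. B was above T in both sexes at either place, while female B lay above male B on 17 and beside it on 6. A single CpG (chr6:47778190-47778191, intergenic) in sequence aligned to annotated ribosomal RNA was at 45.9%, 53.8%, 47.6% and 44.4%, over 109 to 156 reads.

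A further set of short clusters had levels like the ribosomal copy. Outside the ribosomal class, 17 clusters with 231 deep CpGs had a mean level between 20% and 50%, and 11 of these (216 deep CpGs, on 8 chromosomes, 52 to 408 bases long) formed 4 linked groups, each with alignments between its own clusters and to no other cluster of deep CpGs, although they also aligned to further places of the reference. This grouping was made after the levels were seen. None of the 11 aligned to the ribosomal RNA sequences annotated in the reference, which hold 18S but only 420 bases of 28S, so an origin in the rest of the precursor was not tested. Their pooled level was 29.0%, 28.3%, 26.1% and 22.95%, and their relative depth averaged 47.4, 55.2, 50.95 and 50.1 over deep CpGs. Relative depth ranged from 8.53 to 82.9 between the 11.

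The largest of them lies at Zc3h7a, a zinc finger protein gene (chr16:11143944-11144286, 49 deep CpGs), at 28.2%, 25.9%, 23.8% and 21.1% over a relative depth of 62.0 to 75.9. At Cmss1 and Filip1l (chr16:57391336-57391658, 38 deep CpGs) the level was 27.5%, 26.9%, 24.4% and 21.8%. Between genes on 3 (chr3:5860350-5860757, 33 deep CpGs) it was 27.9%, 28.6%, 25.03% and 22.2%, and in a UTR of Lars2, the mitochondrial leucyl-tRNA synthetase gene (chr9:123461833-123462174, 17 deep CpGs), 32.9%, 33.8%, 30.3% and 26.7%. In an intron of the lincRNA gene Gm26561 (chr17:70963730-70963878, 9 deep CpGs) it was 37.4%, 40.01%, 36.1% and 32.0%. Male T was the lowest file in these 5, and also at Camk1d, Gphn, Gm19951 and on 18. It was not the lowest at Tmtc2, nor at Kpna1 (chr16:35981733-35981784, 4 deep CpGs), at 27.3%, 28.1%, 27.95% and 27.7%. On 18 (chr18:68692098-68692263, 16 deep CpGs, intergenic) the level was 33.1%, 30.2%, 34.3% and 26.8%, and in an intron of Tmtc2 (chr10:105238408-105238515, 12 deep CpGs) 34.5%, 26.5%, 29.8% and 29.0%. B was above T in males in 11 of the 11 clusters but in females in 5, and female was above male in both cell types in 5. One unlinked cluster of a like level, intergenic and 61144 bases from Axin2 (chr11:109011928-109012012, 8 deep CpGs, no other copy), was at 38.9%, 34.1%, 37.8% and 29.4%, with a relative depth of 12.1, 11.9, 9.54 and 9.44, higher in both female files.

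**Figure D4:**
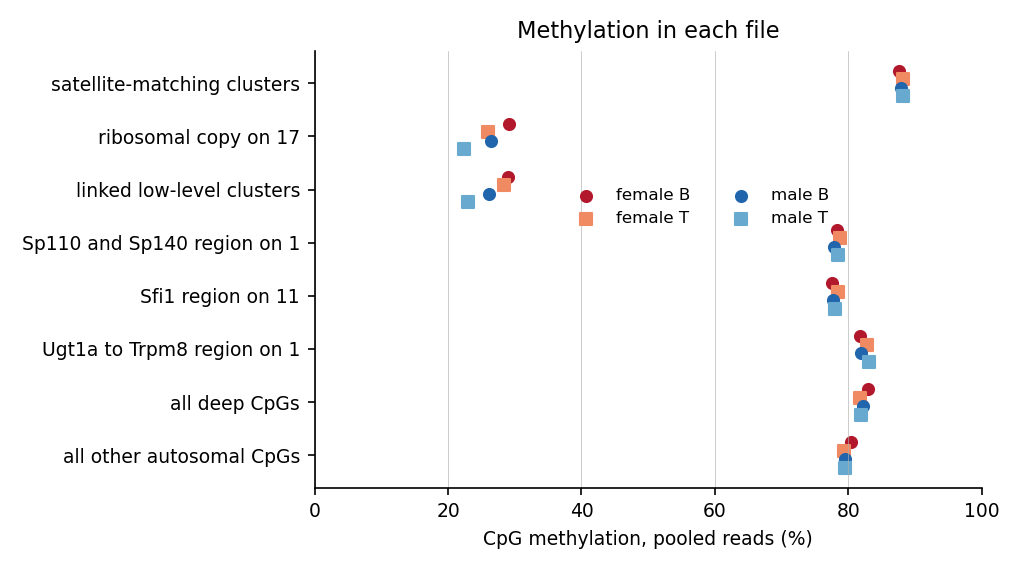
Methylation level (pooled reads, %) of 6 groups of clusters, of all deep CpGs and of all other autosomal CpGs, with 1 symbol per file. The ribosomal copy and the linked low-level clusters spread over 22.4% to 29.2%, with male T lowest, while in each other group the files lie within 2 points of each other.

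Tandem arrays besides the array on 9 were smaller. The largest (chr10:3109661-3117136, intergenic, 70 deep CpGs, period 19 bases) had a relative depth of 19.3, 19.9, 17.8 and 19.4 and a level of 64.6%, 63.2%, 64.9% and 63.9%. On 4 (chr4:118547210-118548710, intergenic, 3165 bases from Tmem125, 49 deep CpGs), the period-44 array had 42.3, 48.9, 40.9 and 46.8 at 85.9%, 85.5%, 85.6% and 85.5%. Relative depth was higher in the T cell file of each sex there, and the level was not. In an intron of Vps45, a vesicle sorting gene (chr3:96044677-96044814, 3 deep CpGs, period 68), the level was 80%, 69.7%, 79.7% and 74.6%. Mean levels under 20% were found, among others, in an exon of Trpm8 (chr1:88277703-88277704, 1 deep CpG), between 0% and 1.98% in the 4 files, and in an exon of Fcgr3, an Fc receptor gene (chr1:171064617-171064628, 2 deep CpGs), at 7.88%, 5.78%, 4.33% and 4.53%.

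Gene regions with several clusters were of 2 kinds, and the regions were defined after the clusters were seen, as 3 or more clusters each under 1 Mb from the next. The largest (chr1:84962873-85627285) held 18 clusters and 402 deep CpGs over C130026I21Rik, Gm2619, Sp110 and Sp140, relatives of the nuclear body gene Sp100, with a median of 9.5 other places. Its relative depth was 9.97, 10.3, 9.89 and 10.03 and its level 78.3%, 78.8%, 77.8% and 78.5%. The largest clusters of the region held 132 (chr1:85244372-85297237) and 71 deep CpGs (chr1:85582931-85608995), at 77.9% to 78.5% and 75.5% to 76.6%. Next was Sfi1, a centrosome protein gene, with its neighbours Pisd-ps1 and Drg1 (chr11:3101286-3199925, 4 clusters, 207 deep CpGs), at a relative depth of 27.0, 26.5, 26.1 and 25.7 and a level of 77.55%, 78.5%, 77.8% and 77.96%. Its largest cluster (chr11:3179149-3199925, 159 deep CpGs, mostly intronic) reached 30.5, 29.7, 29.3 and 28.8 although more than 50% of its stretches had no other copy. Other stretches of it matched clusters on 1, 8 and 11 at over 90% identity, and 155 of its CpGs lay in such a longer stretch found once.

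Another region in which most stretches had no other copy was at 1 (chr1:88212614-88304076, 7 clusters, 96 deep CpGs), from the Ugt1a glucuronosyltransferase genes over Mroh2a and Hjurp, the chaperone of the centromeric histone, to Trpm8, a cold-sensing ion channel. Relative depth was 7.81, 7.82, 7.67 and 7.54, and all 96 CpGs lay in a longer stretch found once. The largest cluster of the region still aligned to one on 11 at up to 95.24% identity. The cluster at chr1:88300778-88304076 in Trpm8 did so at up to 98.02%. The level was 81.8%, 82.8%, 81.9% and 83.1%, and its largest cluster (chr1:88249686-88268161, 54 deep CpGs) was at 88.9%, 91.3%, 89.0% and 91.4%, lower in B cells in both sexes. On 10 (chr10:58221558-58232720, 87 deep CpGs), at AW822073 and Duxf3, a double homeobox gene, relative depth was 14.96, 15.5, 14.9 and 15.8 at 86.8% to 87.7%. A neighbouring intergenic cluster (chr10:58239461-58239575, 4 deep CpGs) had 21.5, 21.9, 19.4 and 18.5.

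Smaller regions lay on 8 (chr8:19698883-20946276, 12 clusters, 46 deep CpGs), 4 (chr4:145838871-147434186, 9 clusters, 44 deep CpGs), 13 (chr13:119488923-119616705, 3 clusters, 31 deep CpGs) and 7 (chr7:59733377-59858303, 3 clusters, 16 deep CpGs). The region on 4 covers zinc finger genes such as Zfp600, and that on 7 lies in Snhg14, host of small nucleolar RNAs of an imprinted locus, with a median of 69 other places. The region on 13 had a median of 0 other places. Relative depth on 13 was 11.1, 8.76, 11.65 and 8.66, higher in the B cell file of each sex. Its first cluster, in a UTR of Tmem267 (chr13:119488923-119488961, 6 deep CpGs), was at 63.5%, 55.0%, 74.8% and 68.6%. There B was above T by 8.51 and 6.25 points, and female below male by 11.3 and 13.6 points, the widest sex difference of the clusters with 3 or more deep CpGs.

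Short clusters in interspersed repeats made up much of the remainder. In 31 clusters with 64 deep CpGs the sequence aligned to 1000 or more other places, and all 31 were marked as repeat over their whole length in the reference. Of these, 23 held 1 or 2 deep CpGs. Their relative depth ranged from 6.78 to 24.3 with a median of 8.86, and their level from 47.3% to 95.8% with a median of 85.9%. By their medians they thus lay close to the depth limit and at levels like the bulk of the genome, though single clusters lay away from both. At the limit itself, 247 deep CpGs with at most 110 reads in their shallowest file were at 77.7%, 77.6%, 77.2% and 77.5%, and 388 CpGs just outside, with 91 to 100 reads, at 72.9%, 72.5%, 72.6% and 72.9%.

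Methylation of B and T cells was then compared in windows of 1 kb by a quasi-binomial model with terms for cell type and sex, fitted to 1950708 autosomal windows. The 403 windows that hold deep CpGs contain 2574 of the 2593. At an adjusted p under 0.05 and a difference of 20 points, the model called 0 of 403 windows different between B and T cells, against 2.12% of all windows. At an unadjusted p under 0.05 there were 89. This count was not taken over all windows, so it cannot be called particular to deep CpGs. Fisher's exact test in both pairs of files called 0 of the 403, against 30271 of all 1950708 windows. With a limit of 10 points the model called 6 (1.49%), against 4.31% of all windows, and all 6 were lower in B cells (2.01% of all windows). At any size it called 59 (14.6%), against 5.5%, 20 of them higher in B cells (background 2.87%) and 39 lower (background 2.62%). Of the 39, 21 lay in the satellite-matching clusters, 20 of these within 1.5 points of 0 (median -0.57 points), 15 lay on chromosome 1 and 3 elsewhere. None of the 20 higher in B cells lay in satellite-matching clusters. Windows with deep CpGs hold a median of 936.5 reads per file against 109 in the others, and their mean dispersion was 3.33 against the shared value of 1.31, with 10.4% of them above the 95% point of that value against 4.96% of all windows. The part of either in the number of calls was not tested.

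The 6 windows of 10 points or more lay in the 2 regions of chromosome 1. The largest was at Mroh2a (chr1:88252001-88253000, 1 deep CpG of 7), at 68.3%, 88.3%, 71.2% and 90.02% in the 4 files, a mean difference of -19.4 points (adjusted p 5.13e-19). A neighbour (chr1:88254001-88255000, 7 deep CpGs) differed by -17.7 points (adjusted p 2.67e-37), with 936 to 1137 reads per file. In the Sp110 and Sp140 region the windows differed by -18.5 (chr1:85105001-85106000, 2 deep CpGs of 7), -17.9 (chr1:85608001-85609000, 2 of 9), -14.2 (chr1:85617001-85618000, 2 of 11) and -11.2 points (chr1:85499001-85500000, 1 of 5). The levels of these windows thus include CpGs that are not deep. These p-values use a dispersion shared by all windows. With the dispersion of each window itself where that was larger, and 1 residual degree of freedom, their unadjusted p lay between 0.0481 and 0.165, and no window was called. That setting called 0 of the 1950708 windows as well, so it says little about any one of them.

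The ribosomal copy passed the adjusted p in all 6 of its windows, with B minus T of 2.86 to 4.60 points. Its own dispersions were 1.78 to 59.7 against a shared value of 1.31, so the shared value understates the spread of these counts, and with their own dispersions the unadjusted p of the 6 windows ran from 0.0229 to 0.174. Among clusters of 3 or more deep CpGs, the widest B minus T of 1 sign in both sexes was at Vps45 (10.3 and 5.09 points), followed by Tmem267 (8.51 and 6.25), the cluster near Axin2 (4.77 and 8.40), that on 18 (2.84 and 7.58) and Tmtc2 (8.03 and 0.78). Over all clusters, B was above T in both sexes in 32 and below in both in 48, with a median of -0.41 points in females and -0.24 in males.

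**Figure D5:**
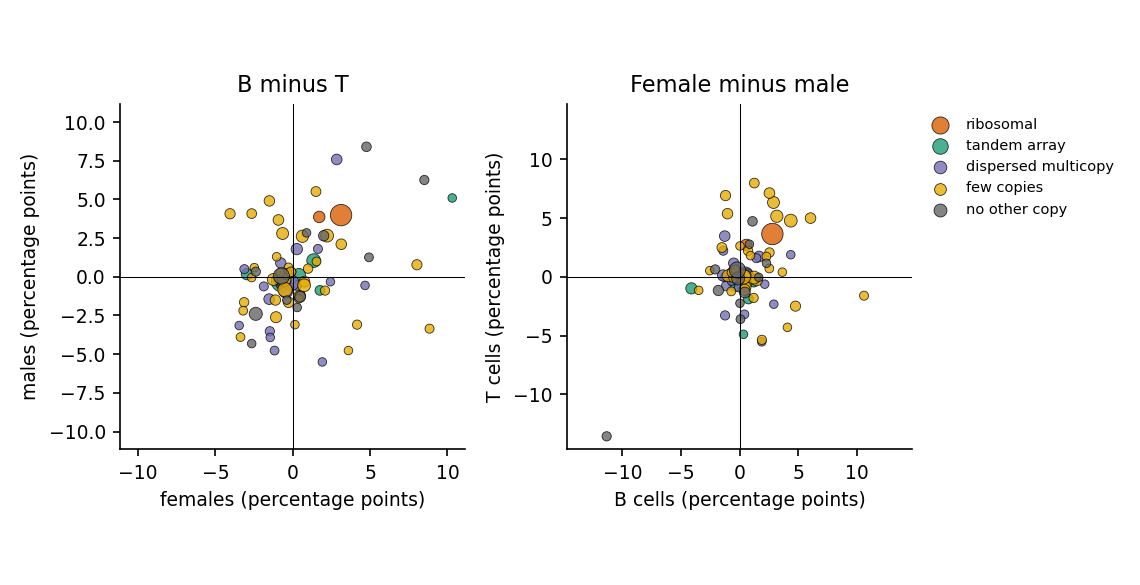
Differences in level (percentage points) of the clusters with 3 or more deep CpGs: B minus T in females against males on the left, female minus male in B cells against T cells on the right, with the class as colour and a larger point for more deep CpGs. Most clusters lie within 5 points of 0, the ribosomal copy lies at 3.13 and 3.99 on the left and 2.78 and 3.64 on the right, and the Tmem267 cluster lies at the lower left of the right panel.

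Sex was a term of the same model. At 20 points it called 0 of the 403 windows, against 0.00103% of all windows. At an unadjusted p under 0.05 there were 50. This count was not taken over all windows, so it cannot be called particular to deep CpGs. Fisher's exact test called 0 of the 403, against 8 of all 1950708 windows. At any size the model called 16 (3.97%), against 0.0226%. Of the 16, 15 were higher in females (background 0.0165%, and 0.00615% for lower in females). They were the 6 windows of the ribosomal copy (2.69 to 3.86 points), 6 windows with short low-level clusters (at Zc3h7a 4.57, Cmss1 4.09, Gm26561 4.66, Lars2 4.67 and 4.87, and on 3 4.61 points) and windows on 6 (4.89), 8 (3.58) and 12 (4.08). The cluster in the window on 8 (chr8:20122757-20122795, 5 deep CpGs) was at 25.6%, 16.7%, 15% and 18.4%, so female B alone stood apart there. The one lower in females held satellite on 2 and differed by -0.11 points, a size near the resolution of the deposited fractions. Windows with deep CpGs were chosen for depth and hold a median of 936.5 reads per file against 109 in the others. Their mean dispersion was 3.33 against the shared value of 1.31, and the part of either in these calls was not tested. Neighbouring windows of 1 copy, all from the same 4 files, are not separate observations. With their own dispersions no window was called, and the unadjusted p of the 16 ran from 0.034 to 0.682. Among clusters of 3 or more deep CpGs, the widest differences of 1 sign after Tmem267 were in an intron of Gm49692 (chr12:20230693-20233861, 6.03 and 5.00 points), Lars2 (2.53 and 7.13), Gm26561 (1.24 and 7.98) and the cluster on 3 (2.88 and 6.33). Whether the sexes or only these pools differ cannot be told apart.

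Relative depth was compared last, as a description: a CpG had to pass the depth limit in all 4 files, so CpGs deep in only 1 cell type or sex were left out by the choice itself. In no cluster did the B cell files exceed the T cell files, or the reverse, by more than 1.5-fold in both sexes, and the same held for the sexes in both cell types. The ratio of male to female relative depth ran from 0.70 to 1.37 in B cells (median 0.97) and from 0.71 to 1.23 in T cells (median 0.97). The highest in both cell types were the first and last cluster of the region on 13 (1.13 and 1.17 at Tmem267, 1.11 and 1.18 at chr13:119616638-119616705), then clusters at C230088H06Rik on 4 (chr4:147398066-147404466, 1.05 and 1.05), in Snhg14 (chr7:59767136-59771756, 1.04 and 1.06) and at Zfp600 (chr4:146167584-146168000, 1.03 and 1.11). The highest female to male ratios were near Axin2 (1.27 and 1.26), at another CpG of Snhg14 (chr7:59858302-59858303, 1.36 and 1.19), in a UTR of the zinc transporter gene Slc30a4 (chr2:122682027-122682120, 1.16 and 1.18), at 2210408I21Rik (1.22 and 1.12) and beside Duxf3 (1.11 and 1.18). With 1 file per group these ratios have no error beyond counting.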

How the data were processed

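Whole-genome bisulfite libraries of 4 groups (female and male B and T cells, 2 samples each) were used, with 1 deposited file per group. Per the labels, the deposited fraction is the methylation level of a CpG to 3 decimals, and the deposited count is its coverage in reads, with none under 5. The submitters' processing notes name Trim Galore, FastQC, Bismark 0.13.1 and mm10. How reads with several placements or PCR duplicates were handled is not given in the sources used here, and both bear directly on depth. Methylated reads were the fraction times the coverage, rounded. The fraction of a CpG lay up to 0.000997 from this whole count over the coverage, more than rounding to 3 decimals gives. The level of a single CpG is therefore not exact to 0.05 points. The labels state that a portion of each sample was oxidized; the files used are the plain bisulfite ones, in which 5-methylcytosine and 5-hydroxymethylcytosine are read alike.

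The deep CpGs, lists and tests were chosen with earlier results of these data known. Cluster sequences (first to last deep CpG with 100 bases to either side) were divided into stretches of about 200 bases and aligned to GRCm38 with blastn 2.17.0 (word size 28, 50% or more of a stretch). The class order was mitochondrial, ribosomal, tandem array (70% or more equal bases at a shift of 5 to 500 over 50% of the sequence), then by other places. Genes came from GENCODE M21 and RefSeq. The windows (3 or more CpGs with 5 or more reads in all files) were fitted by quasi-binomial regression with the dispersion squeezed by limma 3.58.1 (R 4.3.3) and Benjamini-Hochberg adjustment over all autosomal windows. The steps were tested on simulated data, with a dispersion close to the fitted one and changes larger than the differences reported here. That test does not cover the larger dispersion of windows with deep CpGs. Because the prior degrees of freedom were infinite, all windows share 1 dispersion. Clusters were named for most deep CpGs (10), highest depth (5), widest B minus T and female minus male differences of 1 sign (5 each, 3 or more deep CpGs), widest depth ratios of the sexes (5 each way) and the largest of each class. Alternatives were other depth limits, gaps, weightings, window settings, tests, identity limits and leaving out each file. One alternative, the window's own dispersion, was chosen after seeing the data. Some items are not reported here.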

Additional observations from a re-analysis of the deposited data

Results flagged for a closer look

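None of these differences was tested, since each group has 1 file. Of the 81 clusters with 3 or more deep CpGs, B minus T had opposite signs in the sexes in 35 and female minus male in the cell types in 41. Values follow for those that were named, ribosomal, under 50% methylated or above 20-fold in depth. Female minus male of the pooled level differed by 0.874 points between B and T cells. For single clusters, female minus male in B cells less that in T cells was -0.372 points for the deepest cluster on 2, -0.42 for the array on 9, -0.518 for the second cluster on 9, -0.55 for that on 14 (Gm21738), -0.379 at Chl1, 0.333 at AW822073 and Duxf3, -0.778 at Sfi1, -1.52 at C230088H06Rik, -1.67 in Snhg14, 1.67 in an intron of Trpm8, -4.01 in an intron of Camk1d, 5.22 at Vps45, 7.25 at Tmtc2, -4.74 on 18, 12.2 for the intergenic cluster on 8, -6.41 in an intron of Gphn, -8.12 in an intron of Gm19951 and -1.06 at Kpna1. B minus T in females less that in males was -0.379 at Chl1, -0.434 for the intergenic cluster on 15, -0.778 at Sfi1, -0.883 at Slc30a4, -1.06 at Kpna1, -1.67 in Snhg14, 1.81 beside Duxf3, -3.45 for the cluster on 3, -4.6 at Lars2, -6.41 in Gphn, -6.73 at Gm26561, -8.12 in Gm19951 and 12.2 for the cluster on 8.

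Outside the autosomes, CpGs above 100 reads were also found, and no comparison used them. The mitochondrial sequence had 219 in all 4 files, at a level of 0.448%, 0.189%, 0.248% and 0.172% and a relative depth of 42.4, 37.3, 43.2 and 33.8. The X chromosome had 26 in all 4 files and the Y chromosome 107 in the 2 male files. Unplaced and unlocalized contigs had 1009, at 81.8%, 81.9%, 82.2% and 82.2% and a relative depth of 44.4, 43.3, 43.0 and 42.2.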

How the results depend on the processing

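With a limit of 50 or 200 reads the deep CpGs numbered 6273 or 1622, and with gaps of 1 kb the clusters numbered 259. The pooled level of the deep CpGs (female B, female T, male B, male T) became 64.56%, 63.94%, 63.69% and 62.67% as a mean over CpGs, 72.93%, 73.08%, 72.25% and 72.69% as a mean over clusters, and 75.94%, 73.48%, 74.33% and 73.62% without the cluster on 2 that holds the most reads. Above 50 reads it was 82.77%, 81.61%, 82.0% and 81.74%, and above 200 reads 83.07%, 81.91%, 82.32% and 82.03%. The mean difference from the other autosomal CpGs (2.52 points) turned to -16.82 over CpGs, -7.795 over clusters and -5.356 without that cluster, and lay between 2.465 and 2.547 when 1 file was left out. B minus T (0.719 points) was 0.8204 over CpGs, -0.2929 over clusters and 1.586 without that cluster, and 0.3424 to 1.096 without 1 file. Female minus male (0.317) was 1.07, 0.5332 and 0.7427, and -0.2612 to 0.8953 without 1 file. It turned to -0.2612 without the female B file.

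Windows called between B and T cells rose from 0 to 6 with a limit of 10 points and to 1 in windows of 500 bp, and lay between 0 and 2 with 1 file left out (1 without female T, 2 without male B, 1 without male T); the other settings with a limit of 20 points gave 0, and between the sexes each setting with a limit of 10 or 20 points gave 0. Class counts stayed within 1.5 times at 80% identity. No paired analysis was possible because each group has 1 file and the groups share no replicate number; the sign-flip test compares 2 sets of CpGs within a file, and Fisher's test compares files of different groups, so neither pairs replicates.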
